A study of Mus musculus with 4 samples.

Results

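The AP-2 and Dlx genes studied here were Tfap2a, Tfap2b and Tfap2c of the AP-2 family and Dlx1, Dlx2, Dlx3, Dlx4, Dlx5 and Dlx6 of the Distal-less family. They were chosen by name, with earlier results of these arrays known. Every probe set whose only gene symbol in the platform annotation was one of these 9 was taken, which gave 16 of the 45037 probe sets that were not array controls. They were read in mouse embryos of the ARC/s strain at embryonic day 8.5 with 4 to 5 somites (3 to 5 in the source label), as 2 arrays of foregut endoderm and 2 arrays of mesoderm/ectoderm. The latter tissue combined mesoderm of the heart with mesoderm and ectoderm of the head, and 15 to 20 pieces were pooled for each sample. Experiment 1 held 1 sample of either tissue separated by hand, and experiment 2 held 1 sample of either tissue treated with trypsin and pancreatin before dissection, so experiment and dissection cannot be told apart. The labels name no genetic change or drug in either group. Nothing in the labels ties a pool to single embryos, so the spread between the arrays of a tissue is that between pools and may be technical. RNA was amplified in 2 rounds before hybridization to Affymetrix mouse arrays.

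AP-2 factors bind GC-rich palindromic DNA as dimers and act early in surface ectoderm, at the neural plate border and in the neural crest. Dlx factors are homeodomain proteins whose genes lie in linked pairs, and they are known for marking the ectoderm around the anterior neural plate and for patterning the crest of the pharyngeal arches and the ventral forebrain. At this stage the foregut endoderm lies close to the head ectoderm, neural plate and mesenchyme in which these genes are best known.

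The proximal promoters of Tfap2a, Tfap2b and Dlx2 are shown because each had a probe set at least 2-fold lower in foregut endoderm in both experiments. RefSeq windows on GRCm38.p6, each of 250 bases before a start site and 50 after it, were at hand for 4 of the 9 genes: Tfap2a (2 start sites), Tfap2b, Dlx1 and Dlx2. The last 100 bases before the start site are printed 5′ to 3′, with the homeodomain core TAAT, on either strand, in capitals. They lie at chr13:40734921-40735020 and chr13:40733796-40733895 on the minus strand (Tfap2a), chr1:19211954-19212053 on the plus strand (Tfap2b) and chr2:71546755-71546854 on the minus strand (Dlx2).
Tfap2a, first start site: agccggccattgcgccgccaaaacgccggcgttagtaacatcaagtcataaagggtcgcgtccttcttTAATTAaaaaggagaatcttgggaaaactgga
Tfap2a, second start site: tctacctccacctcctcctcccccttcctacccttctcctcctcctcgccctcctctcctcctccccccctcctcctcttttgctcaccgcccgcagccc
Tfap2b: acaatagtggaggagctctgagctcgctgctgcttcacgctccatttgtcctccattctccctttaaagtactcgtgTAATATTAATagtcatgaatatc
Dlx2: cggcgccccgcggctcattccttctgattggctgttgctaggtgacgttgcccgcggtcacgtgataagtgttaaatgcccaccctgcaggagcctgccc

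The first Tfap2a window held the full palindromic homeodomain letters TAATTA once, starting 32 bases before the start site, where the capitals cover 2 overlapping core matches. This motif stood in 5.29% of all 32851 promoter windows of this length, and in none of the other 4 windows of these genes. The capitals in Tfap2b cover 3 core matches, of which the last 2 overlap, and the core TAAT alone stood in 58.0% of all windows. The AP-2 palindrome GCCNNNGGC, searched on both strands, stood in 16.6% of all windows and in 0 of these 5. These are matches of letters, with no measurement of binding behind them.

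The central pattern was that Tfap2a and Tfap2c lay well below their mesoderm/ectoderm levels in foregut endoderm in both experiments. Tfap2a, the AP-2 factor of neural crest and facial ectoderm, was read by 3 probe sets. On its brightest, 1421996_at, the endoderm arrays of experiments 1 and 2 read 8.29 and 4.78 (log2 intensity). The mesoderm/ectoderm arrays read 10.42 in experiment 1 and 9.27 in experiment 2. Tissue means were 6.54 ± 2.49 and 9.84 ± 0.81 (SD, n = 2 each). The tissues did not overlap, but foregut endoderm 1 came within 0.97 log2 units of the lower mesoderm/ectoderm array. The difference, endoderm minus mesoderm/ectoderm, was -2.13 (4.36-fold lower) in experiment 1 and -4.49 (22.5-fold lower) in experiment 2. Its mean was -3.31 ± 1.39 (SE from limma, 2 arrays per tissue). This SE, like those below, comes from a fit that does not pair the arrays by experiment. The mean was -1.55 without foregut endoderm 2 and -5.07 without foregut endoderm 1.

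The other Tfap2a probe sets put the arrays in the same order. On 1426048_s_at the endoderm arrays of experiments 1 and 2 read 5.16 and 3.08, and their mesoderm/ectoderm counterparts 7.18 and 5.76. That gave differences of -2.02 and -2.68 and a mean of -2.35 ± 0.97 (SE). Without foregut endoderm 2 this mean was -1.31, and without foregut endoderm 1 it was -3.39. The third, 1421995_at, was dim throughout, between 2.58 and 3.32, with differences of -0.26 and -0.51. So all 3 probe sets of Tfap2a were highest in mesoderm/ectoderm 1 and lowest in foregut endoderm 2, while the size of the difference depended on the probe set.

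Tfap2c, the AP-2 factor of early ectoderm, trophoblast and germ cells, differed by nearly the same amount in both experiments. Its probe set 1436392_s_at read 7.33 and 6.59 on the endoderm arrays of experiments 1 and 2, and 10.70 and 9.80 on the matching mesoderm/ectoderm arrays. Tissue means were 6.96 ± 0.53 and 10.25 ± 0.64 (SD, n = 2 each). All 4 values were above the filter level of 5, and the tissues stood 2.47 log2 units apart at their nearest. The differences were -3.36 (10.3-fold lower) and -3.21 (9.26-fold lower), and their mean was -3.29 ± 0.52 (SE). This rests on 1 of 3 probe sets, and its _s_at suffix, shared with 1426048_s_at of Tfap2a, marks probes that can match several transcripts. On 1418147_at the values were 2.93 and 2.94 in endoderm against 3.41 and 4.37, hence differences of -0.48 and -1.42. The last, 1448977_at, lay at the lowest value of each array.

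Tfap2b, the AP-2 factor of kidney, limb and sympathetic neurons, gave a divided reading. Probe set 1435670_at was nearly flat, reading 4.98 and 5.11 on the endoderm arrays of experiments 1 and 2 and 5.17 and 5.59 on their counterparts, a mean difference of -0.33 ± 0.34 (SE). The tissues were only 0.05 log2 units apart at their nearest. The other probe set, 1423340_at, was at 3.20 in foregut endoderm 1 and at the array floor, 2.27, in foregut endoderm 2, against 5.04 and 4.98 in mesoderm/ectoderm. Its differences were -1.84 and -2.72, of which the second is a bound in size. It missed the filter because only 1 array lay above 5, so it had no test, and the kept probe set of this gene is the nearly flat one.

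**Figure D1:**
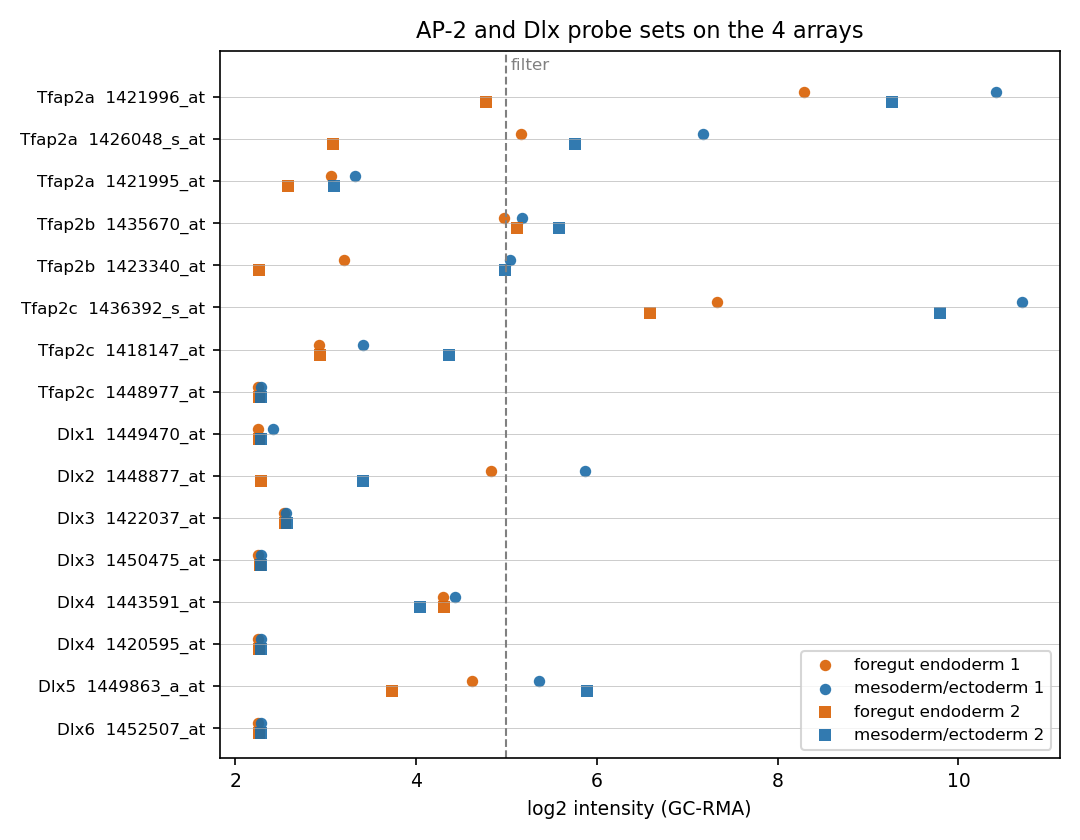
Log2 intensity (GC-RMA) of the 16 AP-2 and Dlx probe sets on each of the 4 arrays; colour gives the tissue, circles experiment 1 and squares experiment 2, and the dashed line the filter level of 5. Tfap2a 1421996_at and Tfap2c 1436392_s_at show both mesoderm/ectoderm arrays to the right of both endoderm arrays, whereas 5 of the 8 Dlx probe sets lie at or near the floor on every array.

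Most Dlx probe sets lay below the filter. Of their 8 probe sets 1 passed it, against 4 of the 8 AP-2 probe sets. Of all 45037 probe sets 13288 passed, and the 5 of 16 members that passed are near that share. Of the 8 Dlx probe sets 4 followed the array floor, that is, their log2 value minus the array's lowest varied by less than 0.02 between arrays. This was so for both Dlx3 probe sets, for Dlx4 1420595_at and for Dlx6 1452507_at. Among all probe sets, 41.1% followed the floor in this sense, so 4 of 8 is near the share of the array. These probe sets give no level and no difference, which does not show that the genes were silent.

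Dlx5, which acts in the anterior neural ridge, in placodes and in the lower jaw, had the 1 Dlx probe set that was kept (1449863_a_at). The endoderm arrays of experiments 1 and 2 read 4.62 and 3.73, and the mesoderm/ectoderm arrays 5.36 and 5.89. The tissues did not overlap, with a gap of 0.73. The difference was -0.73 in experiment 1 and -2.16 in experiment 2, with a mean of -1.45 ± 0.49 (SE). As both endoderm values were under 5, this probe set passed the filter through the mesoderm/ectoderm arrays alone. Its partner Dlx6 followed the floor, so the pair cannot be compared.

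Dlx2, a factor of arch crest and forebrain, had a log2 intensity of 4.83 in endoderm against 5.87 in experiment 1. In experiment 2 endoderm was at the floor, 2.29, against 3.42. Within each experiment endoderm was lower by a similar amount, -1.04 and -1.13, the second a bound in size. Across experiments the tissues overlapped, because foregut endoderm 1 exceeded mesoderm/ectoderm 2. Mesoderm/ectoderm 1 stood 2.45 units above mesoderm/ectoderm 2, and foregut endoderm 1 at least 2.54 units above foregut endoderm 2, which was at the floor. Without foregut endoderm 2 or without mesoderm/ectoderm 1 the mean difference of -1.08 changed sign, to 0.19 and 0.14, the latter value resting on the floor reading of foregut endoderm 2.

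Dlx1 was at the floor on 3 arrays and at 2.42 in mesoderm/ectoderm 1. The second Dlx4 probe set, 1443591_at, lay between 4.05 and 4.43 and had opposite signs in the experiments (-0.13 and 0.26). In the RefSeq gene table no protein-coding gene lay between Dlx1 and Dlx2, between Dlx3 and Dlx4 or between Dlx5 and Dlx6, so each pair is a pair of neighbours on its chromosome. Of the noncoding RNA genes beside them, chosen after their values were seen, Dlx1as, Dlx4os and Dlx6os2 followed the floor. Dlx6os1 was at the floor on 3 arrays and at 2.56 in mesoderm/ectoderm 1. The last value and that of Dlx1 were the only ones off the floor in those probe sets, and both were on the same array.

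Set against the whole array, 5 of the 16 probe sets were at least 2-fold lower in foregut endoderm in both experiments and 0 were at least 2-fold higher, where 0.373% of all 45037 probe sets were lower and 1.28% higher by this rule. With 16 probe sets, a count of 0 higher is near its share. They were 2 of Tfap2a and 1 each of Tfap2c, Tfap2b and Dlx2. The filter required log2 intensity over 5 on 2 or more arrays and kept 5 of the 16: 2 of Tfap2a, 1 each of Tfap2b, Tfap2c and Dlx5. It kept 13288 of all 45037 probe sets, a share near that of the members. Among these, 3 were at least 2-fold lower in both experiments, against 1.00% of the 13288 kept probe sets, and on all 5 both endoderm arrays were below both others, against 9.05%. A filter that a probe set can pass through 1 tissue favours such differences, so these counts describe the probe sets and are not a test. Without foregut endoderm 2 the count of 3 became 1, and with any 1 array left out the 133 probe sets behind the 1.00% became 204 to 525. The median difference of the 5 was -2.35, and that of all kept probe sets was 0.10. With quantile normalization the median of all kept probe sets became -0.02, and the split of 133 lower and 474 higher probe sets became 194 and 367.

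None of these differences passed limma's test. It called 0 of the 13288 probe sets (0.00%) at an adjusted p under 0.05, with 105 lower and 395 higher at an unadjusted p under 0.05. Tfap2c 1436392_s_at and Dlx5 were among the 105. The adjusted p was 0.832 for Tfap2c and 1.00 for the kept probe sets of Tfap2a, Tfap2b and Dlx5. A fit that blocked on the replicate number also called 0, with 358 lower and 968 higher at an unadjusted p under 0.05. In that fit the adjusted p was 0.351 for Tfap2c, 0.488 and 0.410 for the Tfap2a probe sets and 0.505 for Dlx5. Its SE was 0.23 for Tfap2c, 0.73 and 0.29 for the Tfap2a probe sets, 0.24 for Tfap2b and 0.47 for Dlx5. With 2 arrays per tissue, a p above the threshold does not show that the tissues were alike.

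**Figure D2:**
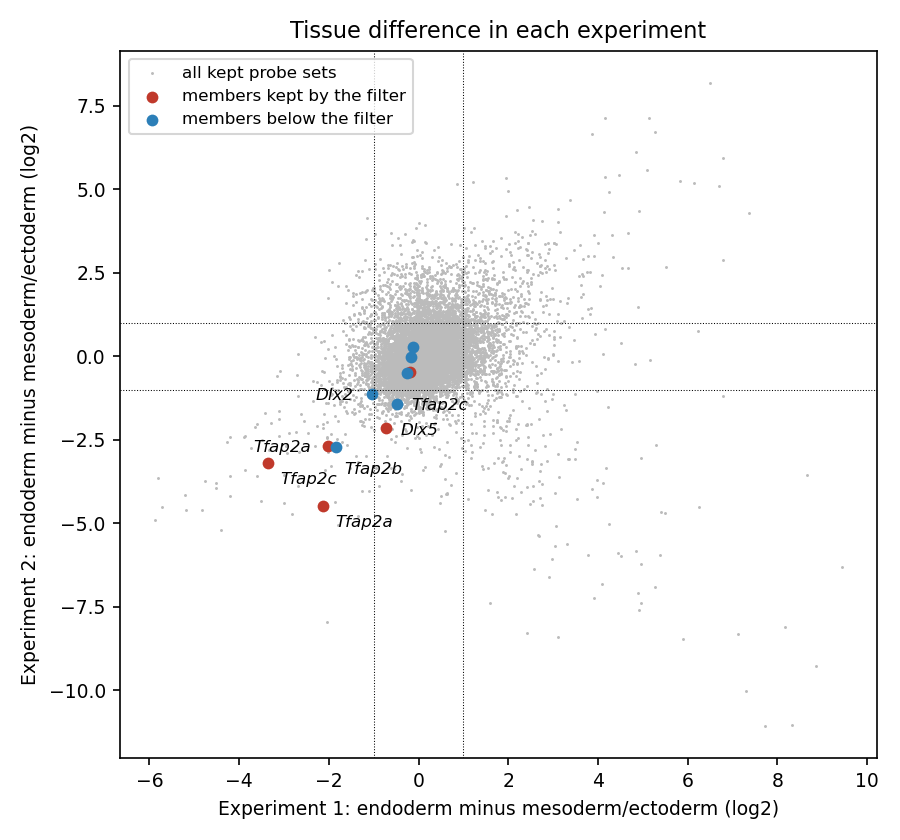
Difference between foregut endoderm and mesoderm/ectoderm (log2) in experiment 1 (horizontal) and experiment 2 (vertical); grey points are the 13288 kept probe sets, red points the members kept by the filter, blue points members below it that did not follow the floor, and dotted lines 2-fold. Past 2-fold in both experiments, in the lower left corner, are Tfap2a 1421996_at and 1426048_s_at, Tfap2c 1436392_s_at, Tfap2b 1423340_at and, just past the lines, Dlx2.

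**Figure D3:**
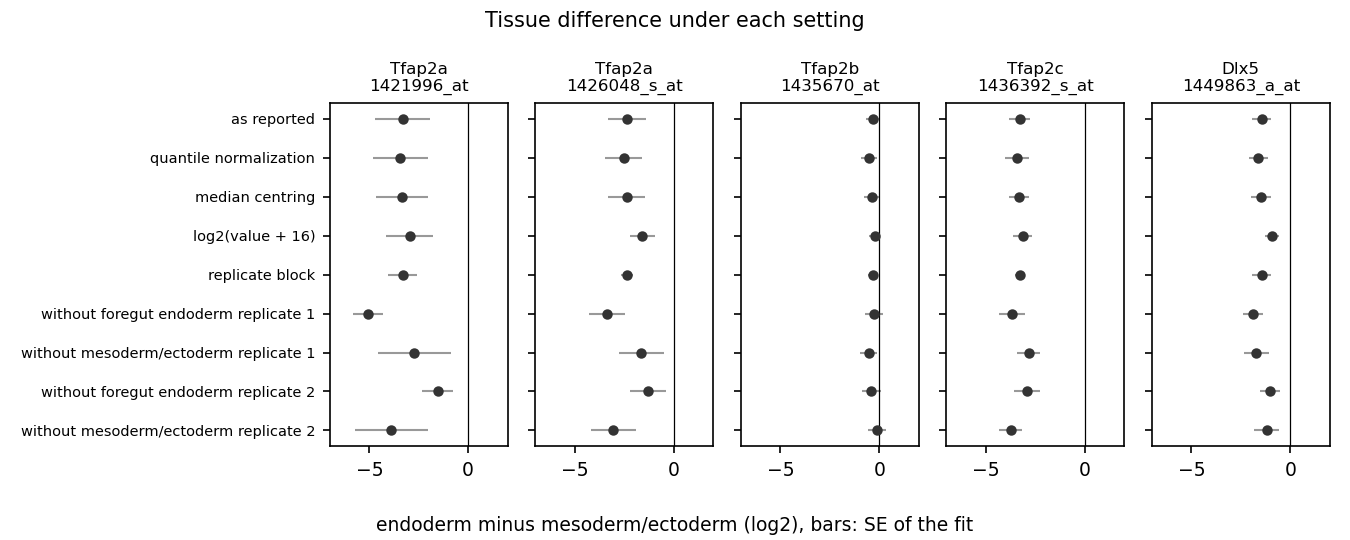
Mean difference, endoderm minus mesoderm/ectoderm (log2), of the 5 kept probe sets as reported and under each alternative setting, with the SE of the limma fit as bars. All 5 stay below 0, and the estimate for Tfap2a 1421996_at runs from -5.07 to -1.55 when arrays are left out.

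For Tfap2a and Dlx5 the tissues lay further apart in experiment 2, while for Tfap2c 1436392_s_at (-3.36 and -3.21) and Dlx2 (-1.04 and -1.13, the second a bound) the differences were nearly equal. Foregut endoderm 1 exceeded foregut endoderm 2 by 3.52 log2 units (11.4-fold) on Tfap2a 1421996_at and by 2.08 on 1426048_s_at, by 0.93 on Tfap2b 1423340_at (a bound in size), by 0.89 on Dlx5 and by 0.74 on Tfap2c 1436392_s_at. The same difference was -0.14 on Tfap2b 1435670_at and -0.01 on Tfap2c 1418147_at. The median of this difference over all kept probe sets was 0.04. Mesoderm/ectoderm 1 exceeded mesoderm/ectoderm 2 by 1.15 on Tfap2a 1421996_at and by 0.90 on Tfap2c, while Dlx5 went the other way at -0.54. With 1 array per tissue and experiment none of these has a replicate. In pooled tissue, fewer cells that express a gene and less of its RNA in each cell cannot be told apart.

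Markers of other tissues also differed between the arrays. The 10 foregut endoderm markers had a log2 summed intensity of 12.58 and 13.86 on the endoderm arrays and of 9.08 and 10.41 on the others, and 9 of them passed the filter, all at least 2-fold higher in endoderm in both experiments. Nkx2-1 followed the floor. The 7 visceral endoderm genes had sums of 10.35 and 12.45 in endoderm against 6.10 and 7.70. In endoderm these sums were mostly Ttr, Afp and Rbp4, the only genes of the list that passed the filter. Amn followed the floor, Cubn was flat at 3.39 to 3.46, and Apoa1 and Apob were below the filter. Foregut endoderm 2 is called ectoderm in 1 description, and its Foxa1, a forkhead factor of gut endoderm, was at 10.82 against 4.13 and 4.89 in mesoderm/ectoderm. Heart muscle, part of the labelled mesoderm, was not read in mesoderm/ectoderm 1: 0 of 10 heart muscle genes were above the filter level there, and the log2 sums were 6.56 there and 16.64 in mesoderm/ectoderm 2. All 10 were above it in foregut endoderm 1 (sum 13.63), and 4 were in foregut endoderm 2 (10.17).

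The endoderm array with more Tfap2a and Dlx2 also had larger sums over the mesenchymal, vessel and blood marker lists. In foregut endoderm 1 and 2, log2 sums were 11.05 and 8.88 over 9 head mesenchyme genes, 9.45 and 6.48 over 8 endothelial genes and 11.22 and 7.71 over 5 red blood cell genes. The sums in mesoderm/ectoderm 1 and 2 were 8.96 and 9.65, 7.16 and 8.94, and 8.68 and 11.26. Of the defining genes Pecam1 and Alas2 were at the floor on every array, and Hba-x and Gata1 on both endoderm arrays. The red blood cell sums in endoderm thus rested on the globin genes Hbb-bh1 and Hbb-y. The sums over the 11 anterior neural plate genes went another way. They were 10.98 and 12.15 on the endoderm arrays and 12.85 and 12.56 on the others. On each endoderm array 4 of 11 genes were above the filter level, and on each of the others 10 of 11. In endoderm these sums were mostly Sox2 (10.57 and 11.71) and Otx2 (8.23 and 9.88). Hesx1 was likewise higher in foregut endoderm 2 than 1, whereas Sox1, Sp8 and Lhx2 were lower. Mesoderm/ectoderm 1, the brightest array for Tfap2a and Tfap2c, had lower mesenchyme, endothelium and blood sums than mesoderm/ectoderm 2. The part of these tissues in the Tfap2a and Tfap2c values was not tested.

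**Figure D4:**
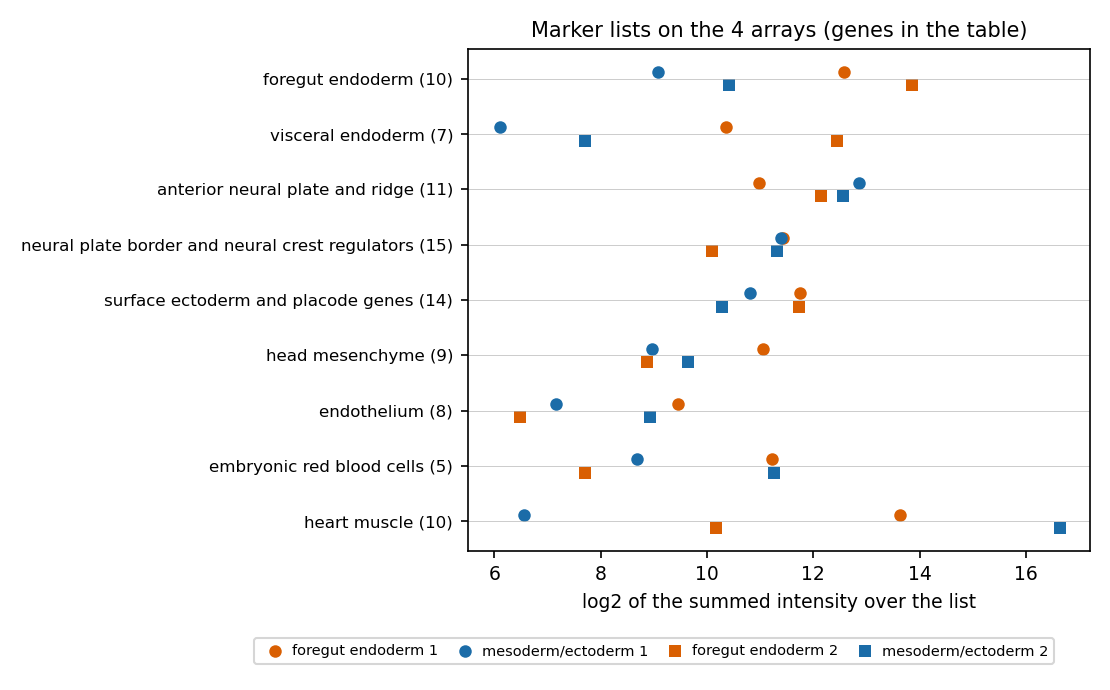
Log2 of the summed intensity of 9 marker lists on each array (number of genes in the table in brackets, brightest probe set of each gene); colour gives the tissue, circles experiment 1 and squares experiment 2. The endoderm lists are higher on both endoderm arrays and the neural plate list is lower, while heart muscle is lowest in mesoderm/ectoderm 1 at 6.56 and highest in mesoderm/ectoderm 2 at 16.64.

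The genes that work beside AP-2 had mixed directions. Of 10 listed relatives and cofactors 9 were in the table and 5 passed the filter. Of these 0 were at least 2-fold lower in both experiments, against 1.24% of the 7802 genes read by their brightest kept probe set, and 0 were at least 2-fold higher, against 3.54%. With 5 genes, counts of 0 are near those shares. The median difference of the 5 was -0.03, over 2 genes lower in both experiments, 2 higher in both and 1 of opposite signs. Kctd15, an inhibitor of AP-2 activity, differed by -0.08 and -0.89 in experiments 1 and 2. The coactivator Ep300, an acetyltransferase, differed by 0.32 and 0.62. Below the filter, Cited1, of the Cited family of coactivators, left its lowest level only in mesoderm/ectoderm 2 (3.87).

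The related gene Tfap2d, next to Tfap2b on its chromosome with no gene of the table between them, had the opposite direction to Tfap2a, Tfap2b and Tfap2c. The endoderm arrays read 4.59 and 3.52 and the mesoderm/ectoderm arrays 3.54 and 2.65, differences of 1.06 and 0.87. It did not pass the filter, and mesoderm/ectoderm 1 stood level with foregut endoderm 2. Tfap2e, the last gene of the family, followed the floor.

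Genes of the neural plate border, which act with AP-2 factors in crest induction, differed among themselves. Of 16 listed 15 were in the table and 10 passed the filter, 7 of them lower and 1 higher in endoderm in both experiments, and 3 at least 2-fold lower in both (Zic1, Pax3 and Zic2). Over all 7802 genes the shares were 24.3% lower in both, 37.0% higher in both and 1.24% at least 2-fold lower in both. The median difference of the 10 was -0.40 in experiment 1 and -2.25 in experiment 2, and limma called 0. Pax3, a paired-box factor of dorsal neural tube and crest, read 4.27 and 3.01 on the endoderm arrays and 8.68 and 8.22 on the others. Zic1, a zinc finger factor of the same border, was at 2.96 and 2.27 (the floor) against 8.14 and 6.88. Zic2 differed by -1.94 and -3.29, and Pax7, below the filter, by -2.83 and -2.42, the second a bound.

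Other kept genes of the same list had other patterns. The genes that follow were picked after their values were seen. Sox9 and Sox10, which act in crest specification, differed by -0.41 and -0.71 and by -0.66 and -1.21. Erbb3, a receptor of crest and glia, was higher in endoderm in both (0.55 and 1.60). Ets1, of endothelium as well as cranial crest, was at 9.20, 9.58 and 9.69 on 3 arrays and 5.94 in foregut endoderm 2, and Twist1, a factor of mesenchyme, was at 7.81 and 2.57 on the endoderm arrays and 5.64 and 7.28 on the others. On both, as on Tfap2a, foregut endoderm 2 was the lowest array. The log2 sums of the 15 crest regulators in the table were 11.43 and 10.09 in endoderm and 11.39 and 11.32 in the other tissue. In foregut endoderm 1 the sum was mostly Snai2 (9.94), Ets1 (9.20) and Erbb3 (9.05), while Pax3, Zic1 and Pax7 read 4.27, 2.96 and 2.66 there. So the near-equal sums do not mean equal levels of each gene.

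The endothelin pathway and arch patterning genes, which surround Dlx5 and Dlx6 in the lower jaw, gave no common direction. Of 12 listed 10 were in the table and 3 passed the filter (Ece1, Mef2c and Hand2). All 3 had opposite signs in the experiments, but Ece1 (0.92 and -0.01) was near 0 in experiment 2. Over all 7802 genes 24.3% were lower in both experiments and 37.0% higher in both, shares that 3 genes are too few to be set against. Hand2, an arch and heart factor picked after its values were seen, read 9.19 and 4.01 on the endoderm arrays and 3.78 and 8.67 on the others. Like the heart muscle sums, it was higher in foregut endoderm 1 than 2 and in mesoderm/ectoderm 2 than 1. Edn1, the endothelin ligand, lay between 4.66 and 4.83 on the 4 arrays. Bmp4, a signal that induces Dlx genes in ectoderm, was below the filter and higher in endoderm (0.91 and 1.28).

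Surface ectoderm and placode genes, which share tissues with AP-2 factors, gave few readings above the filter. Of 19 listed 14 were in the table and 5 passed the filter, of which 0 were lower and 4 were higher in endoderm in both experiments, 2 of them at least 2-fold in both. Over all 7802 genes 24.3% were lower in both, 37.0% higher in both and 3.54% at least 2-fold higher in both. With 5 genes, a count of 0 lower in both is near its share. Gata2 had opposite signs in the experiments (-0.03 and 0.87). The 2 genes past 2-fold were Eya1 (1.72 and 1.64), a transcriptional cofactor of placode development, and Grhl2 (1.45 and 2.51), an epithelial factor shared by ectoderm and gut endoderm. Six4 differed by 0.84 and 1.45. Gata3, below the filter, was at 6.81 in foregut endoderm 2, 2.78 in foregut endoderm 1 and at the floor in the other tissue. The ectoderm keratins Krt14 and Krt17 were at the floor, and Krt5, Trp63, Grhl3 and Wnt6 did not pass the filter. The log2 sums of the 14 genes were 11.75 and 11.73 in endoderm against 10.81 and 10.29. On every array the sum was mostly Six4, at 11.34 and 11.30 in endoderm against 10.50 and 9.85.

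By profile over the 4 arrays, each centred on its mean, the nearest of 7801 other genes to Tfap2a 1421996_at were Ildr2 (Euclidean distance 0.50 log2 units), Scd1 (0.65), Lhx2 (0.81), Pou3f1 (0.84) and Ptn (0.92). Ildr2, for example, was at 8.83 and 4.79 on the endoderm arrays and 10.69 and 9.15 on the others. The nearest to Tfap2c 1436392_s_at were Dmrta1 (0.25), Irs4 (0.39), 2510009E07Rik (0.43), Mir124-2hg (0.48) and Ptprz1 (0.52). Those nearest to Dlx5 were Gpr85 (0.13), Dclk1 (0.36), Cnrip1 (0.39), Septin10 (0.42) and Nfkbie (0.44). The flat Tfap2b probe set was nearest to Wdr12, Thg1l, Zcchc9, Ppp1r7 and Slc30a7, at 0.08 to 0.11.

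Among the members themselves, Tfap2c was the nearest to Tfap2a, at a distance of 1.97 and rank 28 of 7801, and Dlx5 came at 2.89 and rank 116. Seen from Tfap2c, Tfap2a had rank 66 and Dlx5 rank 76. These ranks were not mutual, since from Dlx5 Tfap2a had rank 7030 and Tfap2c rank 4856. Tfap2b had rank 2249 from Tfap2a and 1157 from Tfap2c. Profiles were centred but not scaled, so a distance also reflects how large the differences of a gene were. In experiment 1 the tissue difference was -2.13 for Tfap2a and -3.36 for Tfap2c, while in experiment 2 Tfap2a had the larger difference. These distances describe 4 arrays and carry no test.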

How the data were processed

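Each array's deposited column holds 1 intensity per probe set. Per the series' design text the authors ran GC-RMA in GenePattern; per the submitters' processing notes the tool was RMA. Tool versions and settings: not given in the sources used here. Values spanned a linear scale, and log2 was taken (values set to at least 1, which altered 0). The 45101 probe sets included 64 controls, left out. Median intensity per array was 5.71 to 6.14, 12470 to 13033 probe sets per array lay above log2 5, and 41.4% to 44.8% lay within 0.1 of the array's lowest log2 value, called the floor.

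Members were those with 1 gene symbol, and all 9 matched the RefSeq gene table (GRCm38.p6) by identifier. Members and gene lists were chosen with earlier results of these data known. The tissue contrast was fitted in R 4.3.3 using lmFit and eBayes of limma 3.58.1 (two-sided, Benjamini-Hochberg adjusted) over the 13288 probe sets above 5 on at least 2 arrays, without a block; the code was tested on simulated data. Sample numbers pair the samples, since the labels give tissues of one number the same dissection; deviations from tissue means correlated at 0.565 across probe sets. Named were all members and, per list of related genes, up to 4 with the largest mean difference of one sign in both experiments, each gene by its brightest probe set. Alternatives were scaling, offset, filter, block and leaving out each array.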

Additional observations from a re-analysis of the deposited data

Results flagged for a closer look

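Among kept genes of the 4 lists of cofactors, crest regulators, arch patterning and surface ectoderm, 4 had this pattern: the tissue difference was past 2-fold in both experiments but of opposite sign. The difference in experiment 1 minus that in experiment 2 was 10.08 log2 units for Hand2, 9.52 for Mef2c, 6.87 for Twist1 and 3.18 for Snai2, all higher in endoderm in experiment 1 and lower in experiment 2. The marker lists held the same pattern in 9 heart muscle, 6 endothelium, 2 red blood cell and 3 head mesenchyme genes (Twist1 among the last). The share of all kept genes with this pattern was not counted, so these counts have no background to be set against. With 1 array per tissue and experiment the difference between experiments was not tested.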

How the results depend on the processing

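Of 68 values of 9 member differences (all probe sets off the floor but those of Dlx1 and Dlx4) under alternatives, 65 kept their sign and stayed within the spread or on the same side of the threshold. The exceptions were Dlx2, which turned to 0.143 without mesoderm/ectoderm 1 and to 0.190 without foregut endoderm 2 (range with each array left out -2.35 to 0.190), and Tfap2b 1423340_at, which was -1.08 with an offset of 16. Leaving out arrays moved Tfap2a 1421996_at from -5.07 (without foregut endoderm 1) to -1.55 (without foregut endoderm 2), 1426048_s_at from -3.39 to -1.31, and Tfap2c 1436392_s_at from -3.74 to -2.84. Limma called 0 probe sets under every alternative, the replicate block included, which changed no call. For the tested probe sets the count of 65 is thus a weak measure of stability. It includes the Tfap2a values above and Dlx5 at -0.93 with an offset of 16, against -1.45 as reported.

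Of the members, 3 were at least 2-fold lower in both experiments, 5 with no filter, and 1 (Tfap2c 1436392_s_at) to 4 with an array left out, 1 being without foregut endoderm 2. Over all kept probe sets the count lower was 133, 69 with a filter at 7, and 204 to 525 with an array left out; the count higher was 474, 284 at a filter of 7, and 616 to 1097. The filter tests fewer probe sets, and with an array left out the lone array served both comparisons. Dim probe sets limit the Dlx readings.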
